A study of Rattus norvegicus with 24 samples.

Results

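The genes of the proteasome, the large protease that degrades ubiquitin-tagged proteins in the cytosol and nucleus, were examined in rat thyroid glands after acrylamide exposure. Members were the array probes whose gene name begins with Psma, Psmb, Psmc, Psmd, Psme or Psmf followed by a digit, with the probe of highest mean level kept for each gene. The rule found 49 probes under 45 gene names. Psma3l is a synonym of Psma3 in RefSeq, which left 44 genes, and Psmc3ip (a recombination cofactor named for its binding to a proteasome subunit) is not a subunit itself, so 43 genes are described among 20285 genes tested. They are called subunit genes after their names, although the set also holds the activators and the inhibitor, and Psmd5, Psmd9 and Psmd10 encode assembly chaperones that leave the finished particle. The probes kept for all 43 were well above background on all 24 arrays and saturated on none.

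The study hybridised thyroid RNA of RccHan Wistar rat pups to 24 one-colour Agilent arrays, 1 sample an array, in 6 groups of 4. Acrylamide was given in the drinking water, 3 mg daily for each kg of body weight; dosing began in the dams on gestational day 6 and went on in the pups until postnatal day 35 ± 3. Controls drank tap water. The groups were control females, acrylamide females, control males and acrylamide males, all with glands taken at 10 PM (night), and control females and acrylamide females with glands taken at 10 AM (morning). The labels give 5 pups of each sex killed at each time but do not link arrays to animals; the spread behind each p-value is that between these samples and may be technical. The study asked how thyroid gene expression and hormone levels change together under a low dose, at 2 times of day to cover diurnal change.

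Each level below is the log2 of the scanner's processed signal minus the 75th percentile of that array, so a difference of 1.00 between groups is a doubling. Levels of different probes are not comparable with each other, and only the same probe is compared between groups. In bulk glands, fewer cells of a type and less RNA per cell cannot be told apart. Differences were tested with limma over all 20285 genes, and a gene was called where its Benjamini-Hochberg adjusted p was under 0.05.

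The proteasome has a barrel, the 20S core, made of stacked rings of alpha subunits (Psma genes) and beta subunits (Psmb genes). Psmb5, Psmb6 and Psmb7 carry the cutting sites, and under interferon they are replaced in new particles by Psmb8, Psmb9 and Psmb10, which gives the immunoproteasome, a form abundant in lymphoid cells that yields peptides suited to presentation on MHC class I. The 19S cap sits on the ends of the barrel: its Psmc subunits are ATPases that unfold substrates and feed them in, and its Psmd subunits include the ubiquitin receptors and the deubiquitinase Psmd14. Of the 20 genes counted as cap below, the 3 chaperones named above help to assemble the base of the cap and are counted with it by name; 17 remain without them. Psme1 and Psme2 form PA28, an interferon-induced activator that replaces the cap, Psme3 and Psme4 encode nuclear activators, and Psmf1 encodes an inhibitor. When proteasome activity falls short, the transcription factor NRF1 raises constitutive subunit genes together, through antioxidant response elements in their promoters.

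The promoters of Psmb8, Psmb10 and Psme2 are shown because these are the interferon-inducible members whose windows hold the letters searched. They are RefSeq windows on the GRCr8 build, from 250 bases before to 50 bases after the annotated start, printed 5′ to 3′ along the gene, and the capitals mark the letters GAAA, any 2 bases and GAAA (on either strand), the core of the interferon-stimulated response element.
Psmb8 promoter, chr20:4656982-4657281, minus strand: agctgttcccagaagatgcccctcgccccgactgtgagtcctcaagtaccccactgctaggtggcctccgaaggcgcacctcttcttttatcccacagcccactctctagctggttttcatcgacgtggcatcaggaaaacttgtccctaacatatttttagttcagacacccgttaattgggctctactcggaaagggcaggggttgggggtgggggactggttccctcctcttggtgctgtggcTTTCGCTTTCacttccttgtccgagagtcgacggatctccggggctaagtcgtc
Psmb10 promoter, chr19:50743243-50743542, minus strand: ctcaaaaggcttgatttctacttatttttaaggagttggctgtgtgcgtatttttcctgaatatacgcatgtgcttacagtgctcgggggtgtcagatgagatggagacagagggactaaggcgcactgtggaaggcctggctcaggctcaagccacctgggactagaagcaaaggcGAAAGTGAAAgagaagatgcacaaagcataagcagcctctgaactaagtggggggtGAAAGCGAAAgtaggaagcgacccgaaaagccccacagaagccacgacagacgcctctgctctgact
Psme2 promoter, chr15:33052702-33053001, minus strand: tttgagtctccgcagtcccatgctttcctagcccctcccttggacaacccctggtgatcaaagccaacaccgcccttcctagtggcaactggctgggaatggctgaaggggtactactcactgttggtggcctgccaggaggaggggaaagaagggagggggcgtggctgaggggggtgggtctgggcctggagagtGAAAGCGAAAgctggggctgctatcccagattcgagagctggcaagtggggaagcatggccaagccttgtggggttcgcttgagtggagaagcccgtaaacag
Psmb10 held 2 matches, 73 and 17 bases before the start, Psme2 had 1 match 53 bases before it, and the match of Psmb8 began 4 bases before the start on the opposite strand. The window of Psmb9 held none. Of the 38 subunit genes with a window in the table, 6 held a match (15.8%), against 3.92% of all 33469 windows of the same length; the others were Psma4, Psmb3 and Psmd7.

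Matches to the antioxidant response element core, TGACNNNGC on either strand, were found in 8 of the 38 windows (21.1%), against 12.1% of all windows. The holders were Psma3, Psmb2, Psmb5, Psmb6, Psmd1, Psmd3, Psmd9 and Psme4. The windows of both constitutive catalytic subunits that hold one are shown with the match in capitals, as the counterparts of the inducible genes above.
Psmb5 promoter, chr15:32047330-32047629, minus strand: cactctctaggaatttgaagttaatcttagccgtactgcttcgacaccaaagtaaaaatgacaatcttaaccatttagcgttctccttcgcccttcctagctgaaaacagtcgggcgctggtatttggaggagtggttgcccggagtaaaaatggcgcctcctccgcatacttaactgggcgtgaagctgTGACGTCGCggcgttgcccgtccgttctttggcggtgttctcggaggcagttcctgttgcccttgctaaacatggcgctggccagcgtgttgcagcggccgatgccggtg
Psmb6 promoter, chr10:55737638-55737937, plus strand: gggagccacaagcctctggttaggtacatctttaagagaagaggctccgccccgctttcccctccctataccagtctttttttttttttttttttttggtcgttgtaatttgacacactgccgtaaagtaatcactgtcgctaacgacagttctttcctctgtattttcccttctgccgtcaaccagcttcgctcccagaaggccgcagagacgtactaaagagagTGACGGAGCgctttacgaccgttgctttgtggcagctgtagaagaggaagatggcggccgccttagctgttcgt
The windows of Psmb7 and Psmc3, the members called in the morning, held no such match. CCAAT (either strand), the box bound by NF-Y, was found in 20 of the 38 windows (52.6%, against 37.5% of all), with Psmb7 and Psmc3 among them, and TTCNNNGAA, the letters of the gamma-activated site, in 4 (10.5%, against 8.87%): Psmb8, Psmc6, Psmd3 and Psmd7. A match is a description of the letters and not evidence that a factor binds there.

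The 60-base probes on which the main values rest are given next, as the array files list them, with the rn4 positions of those files. Those of Psma2, Psmb7 and Psmc3 cover 1352, 19875 and 206 bases of the genome, and the others 60.
Psma2 probe, chr17:58736661-58738012, minus strand: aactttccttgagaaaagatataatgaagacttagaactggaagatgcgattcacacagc
Psmb7 probe, chr3:18413231-18433105, minus strand: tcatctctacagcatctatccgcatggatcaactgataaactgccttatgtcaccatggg
Psmc3 probe, chr3:75417518-75417723, plus strand: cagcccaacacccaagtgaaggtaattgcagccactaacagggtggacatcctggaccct
Psmd3 probe, chr10:87466177-87466236, plus strand: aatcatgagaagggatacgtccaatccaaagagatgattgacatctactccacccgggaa
Psmb8 probe, chr20:4787980-4788039, minus strand: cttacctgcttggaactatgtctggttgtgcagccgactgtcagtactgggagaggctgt
Psmb9 probe, chr20:4806341-4806400, plus strand: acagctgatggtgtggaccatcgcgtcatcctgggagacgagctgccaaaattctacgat
Each of these 6 has at least 1 forward reading frame with no stop codon. Of the 43 subunit genes, 18 have copies named after them in RefSeq (49 copies, 46 of them pseudogenes), and signal from such copies cannot be separated from that of the gene.

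The arrays differed in ways that touch these genes. Scan session 1 held all night arrays, females on slide 1 and males on slide 2, with controls in row 1 and acrylamide in row 2 of each, so treatment and row cannot be told apart at night. Session 2 held the morning arrays on slides 3 and 4 with mixed rows. Thyroid follicular markers (10 genes, thyroglobulin and thyroid peroxidase among them) had a mean level of 1.97 to 2.73 on the 16 night arrays and 2.09 to 2.43 on morning control arrays. On the morning acrylamide arrays it was -3.19 in replicate 1 and 1.40 to 1.96 in the others, so replicate 1 went against its tissue label. Oesophageal epithelium markers (6 genes) stood at 2.77 and 2.99 in morning acrylamide replicates 1 and 3, at -0.73 in replicate 2 and at -4.14 to -1.74 on the other 21 arrays. T cell and thymocyte markers (8 genes) stood at 0.85 in morning acrylamide replicate 2 and at -5.51 to -0.94 elsewhere. The value of -0.94 belonged to an acrylamide array of females at night, where controls stood at -5.24 to -3.64. B cell markers (2 genes) reached -2.32 in the same acrylamide group, against -6.89 to -5.56 in its controls. In males at night, skeletal muscle markers (10 genes) stood at 1.20 and 4.89 in acrylamide replicates 2 and 4, against 6.32 to 7.50 on the other 6 arrays, and parathyroid markers (3 genes) at -1.74 in acrylamide replicate 4 against 3.46 to 4.22 on the other 7. In females at night, muscle markers stood at 4.94 and 3.34 in acrylamide replicates 1 and 2, against 6.12 to 6.94 on the other 6. The part of these tissue differences in the results below was not tested. Values without these arrays are given where stated, a choice made after the values were seen. Morning values without replicates 1 and 2 still hold acrylamide replicate 3, with its oesophageal mean of 2.99. The 10 spike-in RNAs, added in known amounts before labelling, differed between acrylamide and control on this scale by a median of 0.02 (-0.03 to 0.24) in females at night, 0.34 (0.15 to 0.46) in males at night and -0.48 (-0.71 to -0.25) in the morning; the part of this in the differences below was not tested.

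In females at night, no subunit gene was called and neither was any other gene (0% of genes tested with limma). At an unadjusted p under 0.05 stood 1 of the 43, Psma2, against 1.87% of all genes. The acrylamide group was higher on average for 33 of the 43 subunit genes, with a median difference of 0.06, while 55.7% of all genes were higher with a median of 0.02. All 7 alpha subunit genes were above 0 (0.01 to 0.68), 6 of 7 constitutive beta genes (-0.03 to 0.24), all 3 immunoproteasome genes (0.36 to 0.49) and 14 of 20 cap genes (-0.08 to 0.32). The arrays of both groups did not overlap for 5 subunit genes, all higher with acrylamide (11.6%, against 5.46% of all genes): Psma1, Psma2, Psmb4, Psmb10 and Psmd14. At the low end, Psmd12, a lid subunit, read 3.02, 3.04, 3.05 and 3.09 in controls and 2.87, 2.84, 2.93 and 3.23 with acrylamide, a difference of -0.08 ± 0.17 (SE). Psme4 read 1.74, 1.58, 1.64 and 1.56 against 1.57, 1.24, 1.39 and 1.82, a difference of -0.12 ± 0.19. The groups overlapped for both. Without acrylamide replicates 1 and 2, the arrays lower in muscle markers, the median of the 43 was 0.09 with 37 above 0, against -0.02 for all genes, and again no subunit gene was called.

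Psma2 encodes an alpha ring subunit and had the largest difference of the 43 in this comparison. It read 1.1, 1.73, 1.30 and 0.90 in control females at night and 1.92, 1.88, 1.93 and 2.03 in acrylamide females. Every acrylamide array lay above every control array, and the controls were spread more widely. The difference was 0.68 ± 0.21 (SE, n = 4 and 4), a 1.60-fold ratio, with a limma adjusted p of 1.00. In males at night the controls read 0.80, 1.33, 1.63 and 0.62 and the acrylamide arrays 1.76, 2.23, 1.50 and 2.03, so that 1 acrylamide array lay below the highest control. The difference there was 0.78 ± 0.21, the largest of the 43 in males as well, with a limma adjusted p of 0.346. Without the arrays low in muscle markers it was 0.72 in females and 0.53 in males. In the morning females the groups overlapped widely, at 2.32, 2.30, 2.04 and 2.20 in controls and 2.06, 1.83, 2.42 and 2.30 with acrylamide, a difference of -0.06 ± 0.21. The test of whether the effect in females differed between night and morning gave 0.74 ± 0.30 with a limma adjusted p of 0.248.

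**Figure D1:**
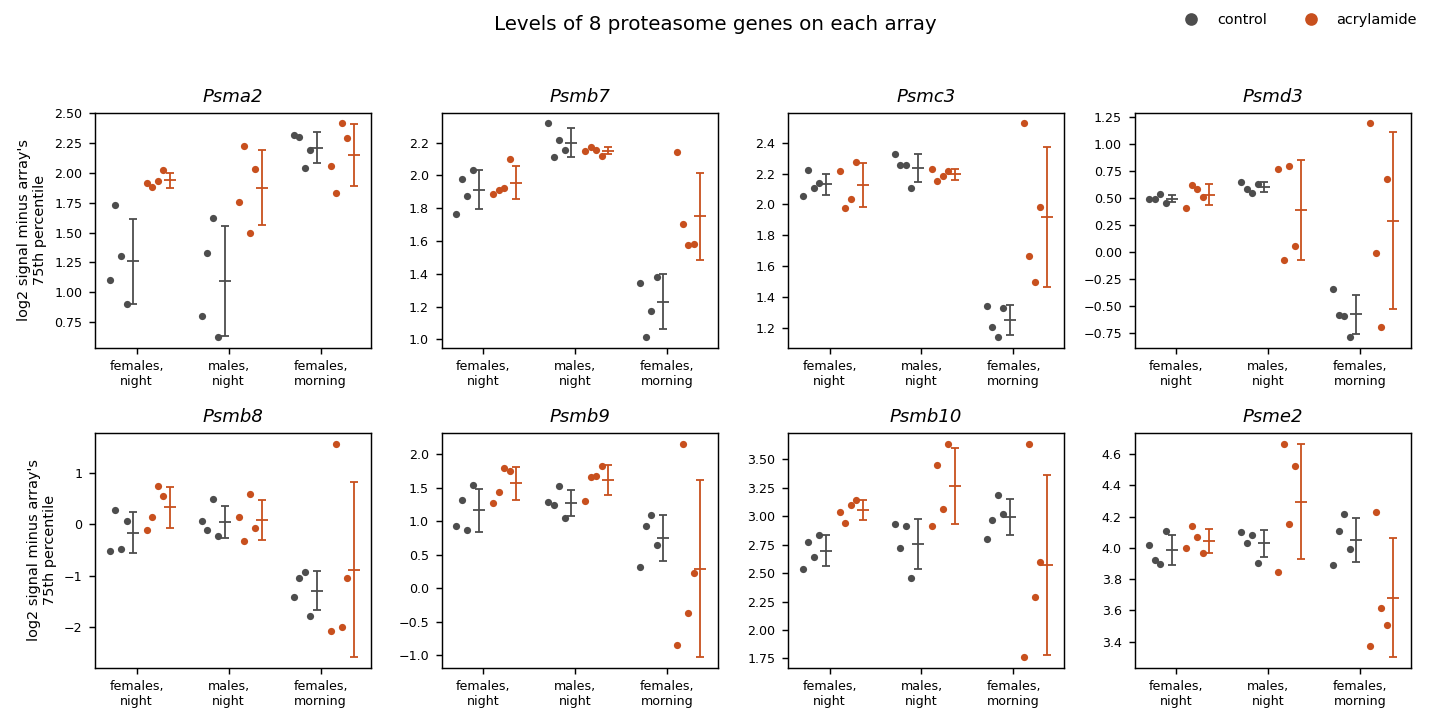
Levels of 8 proteasome genes (log2 processed signal minus the array's 75th percentile) on each of the 24 arrays; points are arrays in replicate order, grey control and orange acrylamide, with the group mean and SD (n = 4) beside them. Psma2 sits between 1.88 and 2.03 on the acrylamide arrays of females at night, above all 4 controls, while the immunoproteasome genes Psmb8, Psmb9 and Psmb10 are widest on the acrylamide arrays of females in the morning.

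In males at night, no subunit gene and no other gene was called (0% of genes tested with limma). At an unadjusted p under 0.05 stood 11 of the 43 (25.6%), against 13.6% of all genes. The median difference of the subunit genes was 0.20, against 0.0046 for all genes, and 31 of 43 were above 0, against 50.5% of all genes. All 7 alpha ring genes had differences above 0, from 0.20 for Psma3 to 0.78 for Psma2, with a median of 0.35, and 5 of the 7 had an unadjusted p under 0.05. Constitutive beta genes had a median of 0.13 (-0.05 to 0.50) and cap genes a median of 0.10 (-0.23 to 0.50), or 0.03 over the 17 without chaperones. Groups did not overlap for 5 subunit genes, all higher with acrylamide (11.6%, against 4.46% of all genes, of which 2.99% higher and 1.47% lower): Psma4, Psmc2, Psmd1, Psmd4 and Psmd7, with differences of 0.41, 0.17, 0.34, 0.23 and 0.40. The lowest differences belonged to 3 lid genes of the cap. Psmd8 read 1.81, 1.84, 1.91 and 1.80 in controls and 1.70, 1.47, 1.89 and 1.40 with acrylamide, and Psmd11 read -1.60, -1.73, -1.66 and -0.96 against -1.58, -2.02, -1.41 and -1.83. Both groups overlapped, with differences of -0.23 ± 0.17 and -0.22 ± 0.18 (SE), and Psmd3 had -0.22 ± 0.27.

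In males, 2 acrylamide arrays stood apart. Psma5, an alpha ring subunit, read 2.46, 2.26, 2.58 and 2.25 in controls and 2.36, 3.68, 2.55 and 3.35 with acrylamide, so replicates 2 and 4 lay far above the controls and replicates 1 and 3 within them. Its difference was 0.59 ± 0.24 (SE) with a limma adjusted p of 0.353. The mean of all 7 alpha genes showed the same split, at 3.87 and 3.71 in acrylamide replicates 2 and 4, 3.18 and 3.26 in replicates 1 and 3, and 2.94 to 3.28 in controls. These are the arrays low in muscle markers. Psmd3 ran the other way on them, with 0.65, 0.58, 0.55 and 0.63 in controls against 0.77, -0.07, 0.80 and 0.06. Without replicates 2 and 4 of the acrylamide males (a choice made after the values were seen), the median difference of the 43 was 0.04 with 25 above 0, against 0.03 for all genes, the alpha median was 0.06 and Psma5 differed by 0.06. The subunit median therefore lay 0.20 above that of all genes with these arrays and 0.01 above it without them.

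In females in the morning, 427 of 20285 genes were called (2.11%), 88 higher (0.434%) and 339 lower (1.67%) with acrylamide. Psmb7 and Psmc3 were called among the 43 subunit genes (4.65%), both higher. The subunit genes had a median difference of 0.12 and 28 of 43 were above 0, while all genes had a median of -0.11 and 40.4% were above 0. The subunit median was 0.03 without acrylamide replicate 1, and -0.0095 with 19 of 43 above 0 without replicates 1 and 2, where that of all genes was -0.09. At an unadjusted p under 0.05 stood 14 of the 43 (32.6%), against 23.9% of all genes. Groups did not overlap for Psmb7 and Psmc3 (higher) and the chaperone Psmd10 (lower), 6.98% of the 43 against 8.58% of all genes (1.87% higher and 6.71% lower).

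Psmb7 encodes the constitutive subunit that cuts after basic residues. It read 1.34, 1.02, 1.18 and 1.38 in control females in the morning and 2.14, 1.70, 1.57 and 1.58 with acrylamide, all 4 above the highest control and replicate 1 the highest. The difference was 0.52 ± 0.13 (SE, n = 4 and 4), a 1.44-fold ratio, with a limma adjusted p of 0.0414. Psmc3 encodes an ATPase of the ring at the base of the cap. It read 1.34, 1.21, 1.14 and 1.33 in controls and 2.52, 1.67, 1.50 and 1.98 with acrylamide, again with no overlap and with replicate 1 the highest. Its difference was 0.66 ± 0.16, a 1.59-fold ratio, with a limma adjusted p of 0.0410.

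Both calls lay near the threshold. Without acrylamide replicate 1, the array with little follicular signal, Psmb7 differed by 0.39 (limma adjusted p 0.161) and Psmc3 by 0.46 (0.121). Without acrylamide replicates 1 and 2 (a choice made after the values were seen) the differences were 0.35 and 0.49, with limma adjusted p of 0.348 and 0.250. Fitted on the 8 morning arrays alone, both had a limma adjusted p of 0.372. Neither was called without any 1 of the 4 morning controls (0.0503 to 0.138), nor without control female replicates 1, 2, 3 or 4, acrylamide female replicates 1 or 3, or control male replicates 1 or 2 at night, which enter through the shared spread (0.0508 to 0.0564). Without control male replicate 3, Psmc3 alone was called. Without morning acrylamide replicate 2, 3 or 4, both were called, within totals of 6, 7 and 3 subunit genes. Of the 6, 4 were lower. The share of all genes called in these fits is not given here, so the totals are not read as a result about subunit genes. Within slide 3 (2 acrylamide and 3 control arrays) Psmb7 differed by 0.46 and Psmc3 by 0.35, and within slide 4 (2 and 1) by 0.48 and 0.93. At night the groups overlapped for both genes. Psmb7 differed by 0.04 in females and -0.05 in males, and Psmc3 by -0.01 and -0.04, with an SE of 0.13 and 0.16. The tests of night against morning effects in females gave -0.48 ± 0.18 for Psmb7 and -0.67 ± 0.22 for Psmc3, with limma adjusted p of 0.232 and 0.226.

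Psmd3, a scaffold subunit of the cap's lid, had the largest morning difference of the 43 but was not called. It read -0.34, -0.58, -0.59 and -0.79 in controls and 1.19, -0.01, -0.70 and 0.68 with acrylamide, so 3 acrylamide arrays lay above the controls and replicate 3 among them. The difference was 0.87 ± 0.27 (SE) with a limma adjusted p of 0.0814. The deubiquitinase Psmd14 read -0.83, -1.01, -0.68 and -0.82 in controls and 0.49, -0.35, -0.95 and -0.06 with acrylamide, with replicate 3 again the one among the controls. It differed by 0.62 ± 0.21 (limma adjusted p 0.0946). Without acrylamide replicate 1, Psmd3 differed by 0.57 (limma adjusted p 0.336) and Psmd14 by 0.38 (0.395). Within slide 3 (2 acrylamide and 3 control arrays) they differed by 0.15 and 0.19. Within slide 4 (2 and 1) they differed by 1.72 and 1.03. Replicate 3 had an oesophageal mean of 2.99 and a follicular mean of 1.40. Over the 20 cap genes the median was 0.15 with 16 above 0 (0.22 with 15 above 0 over the 17 without chaperones), and the mean level read 2.05, 1.73, 1.63 and 1.65 with acrylamide against 1.44 to 1.64 in controls. The alpha genes had a median of -0.06 with 3 of 7 above 0.

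**Figure D2:**
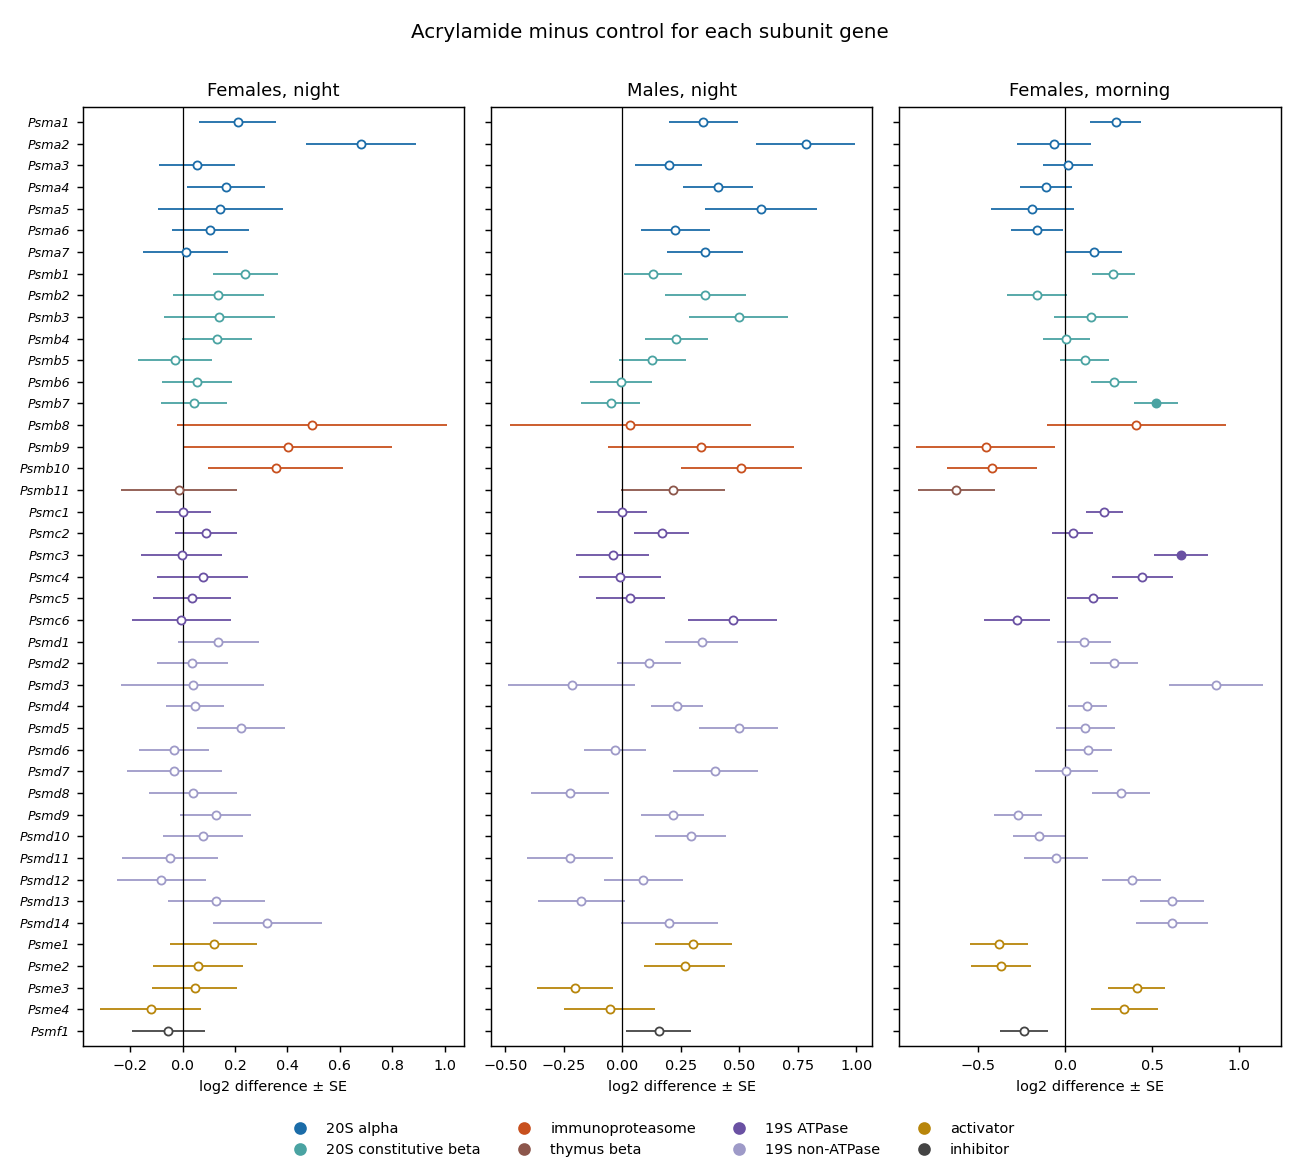
Difference between acrylamide and control (log2, x axis) with its SE for each of the 43 subunit genes, in 3 panels (night females, night males, morning females); each panel has its own x scale, colours give the subunit class and filled points an adjusted p under 0.05. The filled points are Psmb7 and Psmc3 in the morning, and the 7 alpha genes all lie right of 0 in both night panels.

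The immunoproteasome genes had the largest standard errors of the classes, with a median of 0.40 against 0.16 over all 43. Psmb8, which replaces Psmb5, read -0.52, 0.28, -0.48 and 0.05 in control females at night and -0.12, 0.13, 0.74 and 0.55 with acrylamide. In males it read 0.06, -0.12, 0.48 and -0.24 against 0.14, -0.32, 0.58 and -0.07. The groups overlapped in both sexes, with differences of 0.49 and 0.03 and an SE of 0.52. In the morning it read -1.41, -1.05, -0.94 and -1.78 in controls and -2.08, 1.57, -1.99 and -1.04 with acrylamide, so replicate 2 alone lay above the controls. The difference was 0.41 ± 0.52 (SE), with a limma adjusted p of 0.641.

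Psmb9, which replaces Psmb6, read 0.92, 1.31, 0.86 and 1.54 in control females at night against 1.28, 1.44, 1.79 and 1.74, and 1.28, 1.24, 1.53 and 1.05 in control males against 1.30, 1.65, 1.67 and 1.82. Acrylamide arrays were the higher on average in both sexes, by 0.40 and 0.34 (SE 0.40), with overlap in each. In the morning it read 0.32, 0.93, 1.09 and 0.65 in controls and -0.85, 2.15, -0.36 and 0.23 with acrylamide, with 3 acrylamide arrays below every control and replicate 2 above every control. The difference was -0.46 ± 0.40 with a limma adjusted p of 0.487.

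Psmb10, which replaces Psmb7, read 2.53, 2.77, 2.65 and 2.83 in control females at night and 3.03, 2.94, 3.10 and 3.14 with acrylamide, with no overlap and a difference of 0.36 ± 0.26. In males it read 2.93, 2.72, 2.91 and 2.46 against 2.91, 3.44, 3.06 and 3.64, a difference of 0.51 ± 0.26 (SE) with a limma adjusted p of 0.377, or 0.23 without replicates 2 and 4. In the morning it read 2.80, 2.96, 3.18 and 3.02 in controls and 1.76, 3.63, 2.29 and 2.59 with acrylamide, again 3 arrays below every control and replicate 2 above. The morning difference was -0.42 ± 0.26 with a limma adjusted p of 0.318. The test of night against morning effects in females gave 0.78 ± 0.37 (limma adjusted p 0.298) for Psmb10, so the change of sign did not pass the test.

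The array that stood apart in these genes was the one rich in T cell markers. The mean of the 3 immunoproteasome genes read -0.39, 2.45, -0.02 and 0.59 on morning acrylamide replicates 1 to 4 and 0.57 to 1.11 in controls, while the T cell and thymocyte mean read -4.65, 0.85, -4.05 and -4.83 against -3.86 to -2.24. Of the 10 listed T cell markers 8 were measured, and 5 of them were above 0 in the morning difference (median 0.08). At night 7 of the 8 were above 0 in females (median 1.51) and 6 in males (median 0.87), with 0 called. The part of T cell content in the immunoproteasome differences was not tested, at night or in the morning. Without replicates 1 and 2 the median of the 3 genes in the morning was -0.55.

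**Figure D3:**
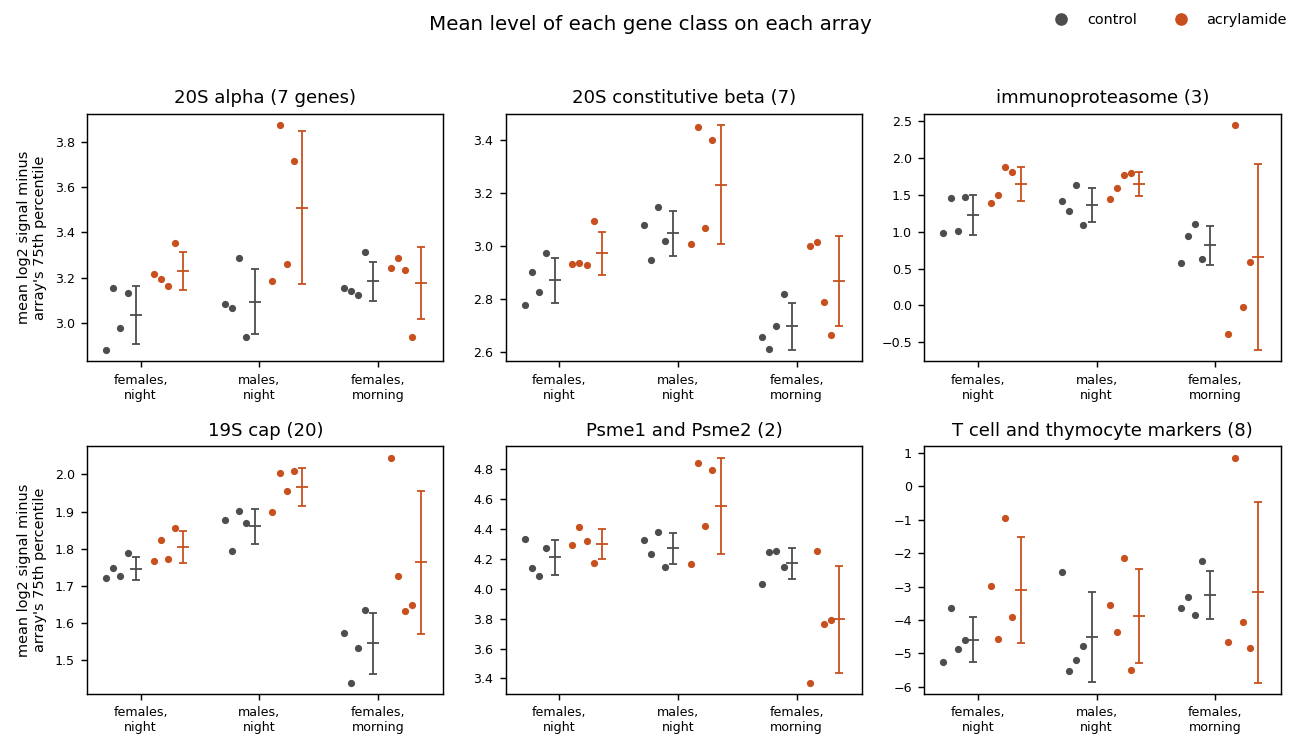
Mean level (log2 processed signal minus the array's 75th percentile) of 5 subunit classes and of T cell and thymocyte markers on each array, points in replicate order with group mean and SD (n = 4). Morning acrylamide replicate 2 is highest for both the immunoproteasome genes (2.45) and the T cell markers (0.85), and acrylamide replicates 2 and 4 of males at night lie above all other arrays for the alpha genes (3.87 and 3.71).

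Whether the inducible subunits moved against their constitutive counterparts was asked on each array by the difference Psmb8 minus Psmb5, Psmb9 minus Psmb6 and Psmb10 minus Psmb7. Subtracting a constant from a whole array does not change such a difference, but background correction and quantile normalization can. Under the alternatives tried, the acrylamide effect on Psmb8 minus Psmb5 in night females ran from 0.40 to 0.52. Exact two-sided permutation tests were made for 3 pairs in 3 comparisons, where 4 against 4 arrays allow no p below 0.0286. Psmb10 minus Psmb7 read 0.77, 0.80, 0.77 and 0.80 in control females at night and 1.15, 1.03, 1.18 and 1.03 with acrylamide. The acrylamide arrays were all higher, by 0.31 on average (exact p 0.0286, adjusted over 9 tests 0.129). In males it read 0.61, 0.61, 0.70 and 0.30 in controls and 0.76, 1.27, 0.90 and 1.52 with acrylamide, again all higher, by 0.56 (exact p 0.0286, adjusted 0.129). Without the arrays low in muscle markers the difference was 0.32 in females and 0.28 in males. In the morning it read 1.46, 1.95, 2.01 and 1.63 against -0.38, 1.93, 0.71 and 1.01, lower by 0.94 on average and below every control in 3 of 4 arrays (the difference was -0.94, exact p 0.0857, adjusted 0.193). The morning difference was -0.54 without acrylamide replicate 1 and -0.90 without replicates 1 and 2. Of the 9 tests, 0 passed after adjustment.

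The other pairs overlapped in every comparison. Psmb9 minus Psmb6 was 0.35 and 0.34 higher with acrylamide in females and males at night (exact p 0.114 and 0.0857) and differed by -0.74 in the morning (exact p 0.343). Psmb8 minus Psmb5 differed by 0.52 in night females, -0.09 in night males and 0.30 in the morning (exact p 0.143, 0.743 and 0.83). Without acrylamide replicate 2 the morning value was -0.50, and without acrylamide replicate 2 in males the male value was 0.10.

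The constitutive partners Psmb5 and Psmb6 had small differences at night, -0.03 and 0.05 in females and 0.13 and -0.01 in males, with an SE of 0.14 and 0.13. In the morning Psmb5 read 3.20, 2.99, 3.15 and 3.62 in controls and 3.55, 3.41, 3.48 and 2.96 with acrylamide, and Psmb6 read 1.81, 1.78, 1.94 and 2.09 against 2.49, 2.19, 2.25 and 1.81. For both, replicate 4 was the highest control and the lowest acrylamide array. The differences were 0.11 and 0.28, with limma adjusted p of 0.645 and 0.199.

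**Figure D4:**
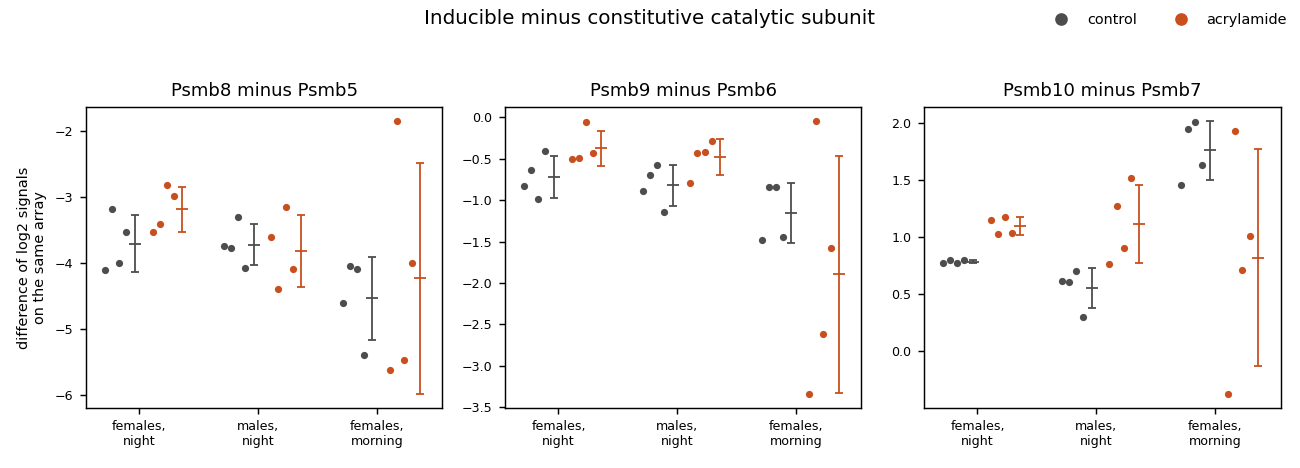
Difference between the log2 signals of an inducible subunit and its constitutive counterpart on the same array (y axis), in 3 panels, points in replicate order with group mean and SD (n = 4). For Psmb10 minus Psmb7 all acrylamide arrays lie above all controls at night in both sexes, and 3 of 4 lie below all controls in the morning.

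Psme1 and Psme2, the interferon-induced PA28 subunits, had small differences in females at night (0.12 ± 0.17 and 0.06 ± 0.17 (SE)). In males Psme1 read 4.55, 4.43, 4.68 and 4.39 in controls and 4.48, 5.02, 4.69 and 5.07 with acrylamide, and Psme2 read 4.10, 4.03, 4.08 and 3.91 against 3.85, 4.67, 4.15 and 4.52. Both were highest in replicates 2 and 4, with differences of 0.30 and 0.27, or 0.08 and -0.03 without these arrays. In the morning Psme1 read 4.17, 4.39, 4.29 and 4.31 against 3.38, 4.28, 3.91 and 4.07, and Psme2 read 3.89, 4.11, 4.22 and 3.99 against 3.37, 4.23, 3.62 and 3.51. Both were lower in replicates 1, 3 and 4 and level with controls in replicate 2, the same division as for Psmb9 and Psmb10. The differences were -0.38 and -0.37, with limma adjusted p of 0.172 and 0.2.

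Psme3, the nuclear PA28 gamma, read -1.46, -1.55, -1.59 and -1.70 in morning controls and -1.05, -1.16, -1.65 and -0.79 with acrylamide. The difference of 0.41 ± 0.16 (SE), with 3 arrays above the controls, had a limma adjusted p of 0.138, and at night it was 0.05 in females and -0.20 in males. Psme4, the PA200 activator, differed by -0.05 ± 0.19 in males and 0.34 ± 0.19 in the morning, and its second probe disagreed in sign with the first in both night comparisons (0.13 in females and 0.40 in males). Psmf1, the PI31 inhibitor, read 1.76, 1.77, 1.80 and 1.90 in control females at night and 1.81, 1.95, 1.93 and 1.32 with acrylamide, where replicate 4 alone lay below the controls. The difference was -0.06 ± 0.14 (SE), and it was 0.16 in males and -0.24 in the morning. Its second probe gave 0.10 in females at night and 0.36 in the morning, opposite in sign to the first in both. Second probes of Psma3 (females at night) and Psmd9 (morning) disagreed in sign with the first as well.

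Psmb11 encodes the catalytic subunit of thymic cortical epithelium. Its kept probe read -4.22 to -3.47 in females at night, -4.55 to -3.69 in males, -1.60, -1.31, -1.28 and -1.20 in morning controls and -2.28, -1.44, -1.70 and -2.48 with acrylamide. The morning difference was -0.63 ± 0.22 (SE) with a limma adjusted p of 0.108. A second probe for the same transcript, starting at base 911 rather than 2556 of it, was well above background on 2 of 24 arrays and did not pass the filter.

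Over all 3 comparisons, 14 of the 43 subunit genes were higher with acrylamide each time (32.6%) and 1 was lower each time, Psmd11, while 8.44% of all genes were higher and 11% lower each time. Averaged over the 3 comparisons, no subunit gene was called and 1 gene was called in all (0.00493%). The median of the averaged difference was 0.12 for the subunit genes, with 39 of 43 above 0. For all genes it was -0.03, with 42.4% above 0. At an unadjusted p under 0.05 stood 10 of the 43 (23.3%), against 6.68% of all genes. The arrays that stood apart in tissue markers enter these counts and averages, and neither is given without them. In males without acrylamide replicates 2 and 4, the subunit median was 0.04 with 25 above 0 (all genes 0.03). In the morning without acrylamide replicates 1 and 2, but with replicate 3 (high in oesophageal markers), it was -0.0095 with 19 above 0 (all genes -0.09). In females at night without acrylamide replicates 1 and 2 it was 0.09 with 37 above 0 (all genes -0.02). Psma2 had the largest averaged difference, 0.47 ± 0.12 (SE), with a limma adjusted p of 0.461. Interaction tests of the acrylamide effect between the sexes (night) and between the times (females) called no subunit gene and no other gene (0% of genes in both); at an unadjusted p under 0.05 stood 0 and 6 of the 43, against 2.2% and 16.3% of all genes.

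Between night and morning in control females, 18 of the 43 subunit genes were called with limma (41.9%), 13 higher at night and 5 lower, against 48.6% of all genes (20.8% higher and 27.8% lower), so the share was not above the background. At an unadjusted p under 0.05 stood 22 (51.2%, against 54.3% of all genes). Groups did not overlap for 15 that were higher and 5 that were lower (46.5%, against 57% of all genes, 26.8% higher and 30.2% lower). Scan session and slide changed with time, and collection time cannot be told apart from them. The highest called members at night were Psmd3 (1.07 ± 0.27, limma adjusted p 0.00266), Psme4 (1.05 ± 0.19, 0.000131) and Psmc3 (0.88 ± 0.16, 8.92e-05). For Psme4, controls read 1.74, 1.58, 1.64 and 1.56 at night and 0.61, 0.11, 0.53 and 1.07 in the morning, with no overlap. Its second probe gave 0.50 in the same direction. Second probes of Psmf1 and Psmd9 gave 1.49 and 1.05, where the kept probes gave 0.06 and 0.21. That of Psma3 gave -0.02, against -0.12 for the kept probe. The counts above rest on the kept probes. The lowest were Psmb11 (-2.65 ± 0.22, 3.84e-09), Psmd11 (-1.96 ± 0.18, 2.12e-08) and Psma2 (-0.96 ± 0.21, 0.000797). Psmd11, a lid subunit, read -1.46, -1.66, -1.80 and -1.65 at night and 0.28, 0.63, 0.19 and 0.16 in the morning.

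By class, 9 of 20 cap genes were called higher at night and 2 lower, 55% in all (8 and 2 of the 17 without chaperones). Of 14 constitutive core genes, 2 were called higher and 2 lower, 28.6% in all. The share of all genes called was 48.6%, with 20.8% higher and 27.8% lower. The immunoproteasome genes were not called, although Psmb8 had a large difference (1.13 ± 0.52, limma adjusted p 0.0770). Its groups did not overlap, as for 57% of all genes. Both genes called higher with acrylamide in the morning were also called higher at night than in the morning in controls (Psmb7 by 0.68, Psmc3 by 0.88); the morning controls enter both comparisons, so these are not independent.

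Between males and females in controls at night, no subunit gene was called and 2 genes were called in all (0.00986%, limma); at an unadjusted p under 0.05 stood Psmb7 alone (0.29 ± 0.13 (SE)), 2.33% against 1.63% of all genes. Small differences ran one way: 35 of 43 were higher in males with a median of 0.09, against 50.1% of all genes. Groups did not overlap for 11 of the 43, all higher in males (25.6%, against 3.73% of all genes, 2% higher and 1.73% lower). They were Psmb4, Psmb5 and Psmb7 of the core and Psmc1, Psmc4, Psmc5, Psmd1, Psmd3, Psmd4, Psmd12 and Psmd13 of the cap. Psmb5 read 3.80, 3.66, 3.78 and 3.83 in males and 3.58, 3.46, 3.53 and 3.59 in females, a difference of 0.23 ± 0.14. Each sex lay on a slide of its own, so sex and slide cannot be told apart.

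**Figure D5:**
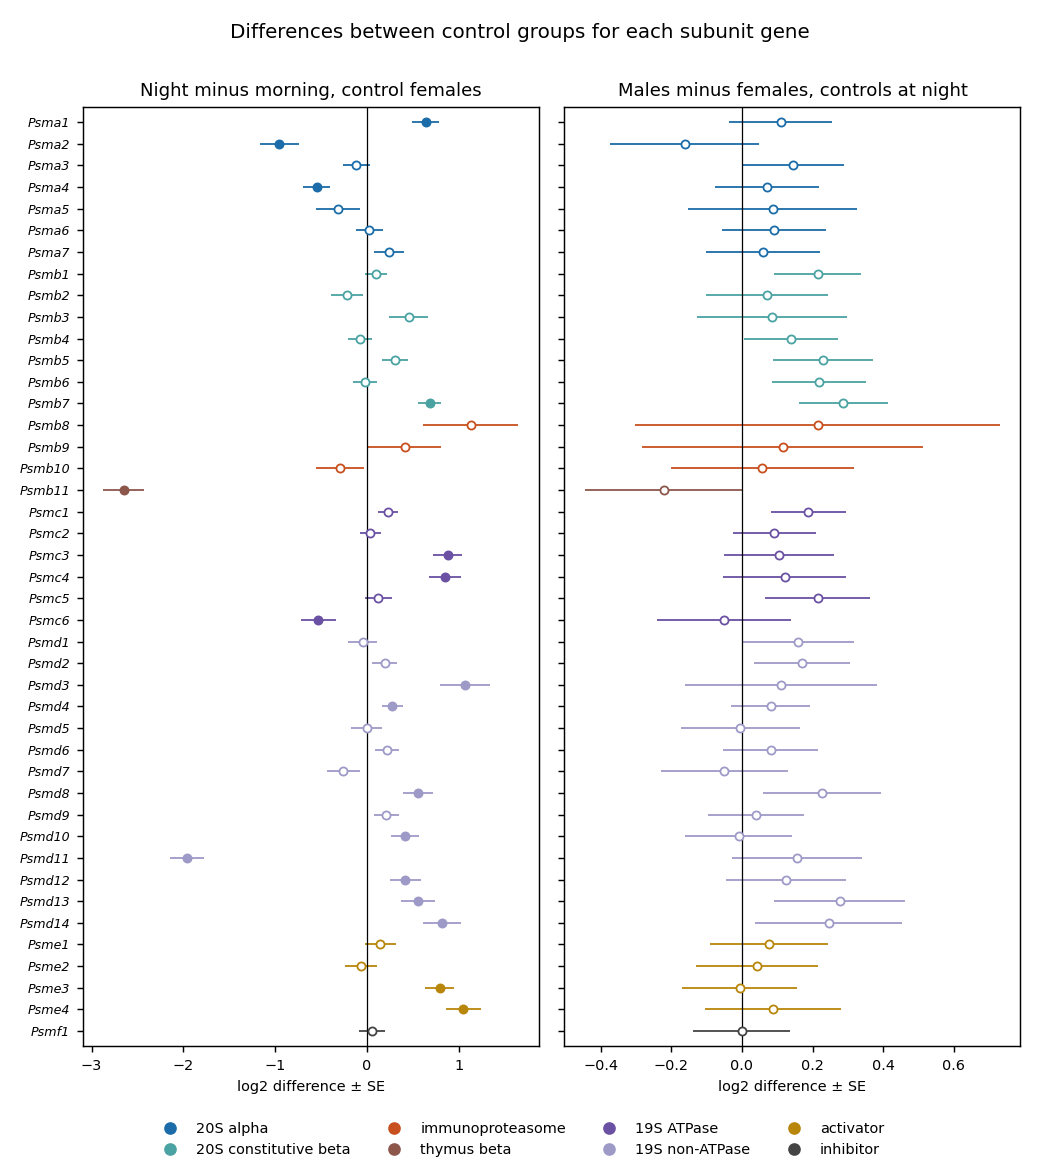
Difference between control groups (log2, x axis) with its SE for each of the 43 subunit genes, night minus morning in females on the left and males minus females at night on the right; filled points have an adjusted p under 0.05. On the left 13 filled points lie right of 0 and 5 left of it, with Psmb11 at -2.65 and Psmd11 at -1.96; on the right none is filled and 35 of 43 lie right of 0.

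Genes that act with the proteasome were taken from 7 lists, and 0 of 70 were called in either night comparison with limma (0% of all genes). At an unadjusted p under 0.05 stood 0 of the 70 in females, 14 in males and 17 in the morning. The shares of all genes were 1.87%, 13.6% and 23.9% in the same order. In the morning females 1 of the 70 was called, against 2.11% of all genes. It was B2m, the light chain of MHC class I, which fell by 0.85 ± 0.22 (SE, limma adjusted p 0.0494). The list of MHC class I processing and interferon signalling, which holds B2m, had 14 genes with a median difference of -0.38 and 4 above 0. B2m read 5.0, 4.94, 4.98 and 4.68 in controls and 3.40, 4.54, 4.15 and 4.09 with acrylamide, all 4 below the lowest control. Replicate 1, the array with little follicular signal, was the lowest, and replicate 2, the array rich in T cell markers, the highest. Without replicate 1 it differed by -0.64 (limma adjusted p 0.202), without replicate 2 by -1.02 (0.0284) and without both by -0.78 (0.285). The part of these tissue differences in the call was not tested. No gene was called of 11 in the NRF1 pathway list, 10 assembly factors, 13 genes of substrate delivery, 8 ubiquitin and E1 genes, 8 cytosolic deubiquitinases and 6 muscle ubiquitin ligases. In the NRF1 list, Mafk, a small Maf partner, and Nfe2l2, which encodes NRF2, had morning differences of 1.32 ± 0.39 (SE) and -0.53 ± 0.19. The nuclear import factor Akirin2 differed by 0.73 ± 0.23 in the morning and the cap deubiquitinase Uchl5 by 0.49 ± 0.20 in males.

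In males at night the ubiquitin list had all 8 genes above 0 (median 0.26), against 50.5% of all genes. The list was led by Uba7, the E1 of the interferon-induced modifier ISG15 (0.79 ± 0.23 (SE)), and Rps27a (0.51 ± 0.27). Without replicates 2 and 4 of the acrylamide males, 5 of the 8 were above 0 with a median of 0.09, and Uba7 differed by 0.59. In females at night the list had 5 of 8 above 0 (median 0.05). In the morning the list had 1 of 8 above 0 (median -0.19, all genes -0.11), and Uba7 differed by -0.70 ± 0.23. The 6 muscle ligases were all lower in males at night (-2.50 to -0.05), with Fbxo40 at -2.50 ± 1.00 and Trim63, the atrophy ligase MuRF1, at -2.17 ± 1.1. All 6 were also lower in females at night (median -1.17) and all 6 higher in the morning (median 1.09). The part of muscle content in these differences was not tested. In males at night Ubqln4, a shuttle that carries ubiquitinated proteins to the cap, differed by -0.71 ± 0.33, and Usp5 and Usp8 by -0.82 ± 0.48 and 0.45 ± 0.18. All of these had a limma adjusted p of at least 0.353 in males, and morning values named here other than B2m at least 0.0678.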

How the data were processed

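Total RNA from thyroid glands was read on 24 one-colour Agilent arrays (Cy3), 4 in each of 6 groups. Per the file headers, the scanner software was Agilent Feature Extraction 10.1.1.1 with the rn4 build, and each spot has a background-subtracted intensity (the processed signal), raw and background intensities, and quality flags. The deposited series matrix holds log2 values, which equal the log2 processed signal less a constant for each array, with every column's median at 0.

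From these, spots flagged as non-uniform or as population outliers were left out, spots of a probe averaged on the log2 scale and the array's 75th percentile subtracted. Probes well above background on at least 3 of 4 arrays of at least 1 group were kept (23416 of 30367), and the probe of highest mean stood for each gene. limma 3.58.1 (R 4.3.3) was fitted with 6 group means over 20285 genes, with Benjamini-Hochberg adjustment. RefSeq named the probes by accession (18005), symbol (2671) or synonym (557), and 9134 kept the name of the array. With 4 arrays a group, the number of arrays limits the precision. Members, gene lists and tests were chosen with earlier results of these data known. Values in each array are given by rule for members called with acrylamide, the catalytic subunits, activators and inhibitor, and the 3 largest and 3 smallest differences of each acrylamide comparison (called members where controls were compared); of a pathway list, called genes or else the 2 largest differences, of which 1 is not reported here. In a check of pairing by replicate number, 2 of 12 arrays matched best with their own number, with correlations of deviations from -0.229 to 0.355. The check showed no pairing but cannot exclude it, because tissue differences between arrays enter the deviations. Scripts were tested on simulated data. Alternatives changed the background correction, scaling, filter, arrays fitted, model and block.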

Additional observations from a re-analysis of the deposited data

Results flagged for a closer look

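In 6 of 156 groups of 4 arrays examined for the named members and class means (3.85%), 1 array lay apart from the other 3 by Dixon's criterion, which chance alone meets in about 1 group in 20. The alpha subunit mean was low in acrylamide replicate 4 of females in the morning (2.94, the others 3.24 to 3.29) and high in control replicate 4 of the same time (3.31, the others 3.12 to 3.15); both arrays lie on slide 4. The constitutive beta mean was high in acrylamide replicate 4 of females at night (3.09, the others 2.93 to 2.94). Psmb5 was low in acrylamide replicate 1 of females at night (3.41, the others 3.53 to 3.55). Psmb11 was high in control replicate 3 of females at night (-3.47, the others -4.20 to -4.16). Psmd11 was high in control replicate 4 of males at night (-0.96, the others -1.73 to -1.60).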

How the results depend on the processing

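The morning count of 2 subunit genes called became 0 under median centring, the series matrix values, no filter, the 8 morning arrays alone, array weights, slide as a term and without acrylamide replicates 1 and 2 (added after seeing the data). It stayed at 2 under normexp, quantile normalization, the stricter filter, every probe tested apart, a variance trend with robust moderation, and the replicate block, where Psmc3 had an adjusted p of 0.0414 and Psmb7 of 0.0496. Leaving out 1 array at a time gave 0 to 7, and the share of all genes called in those fits is not given here. The block changed no call of subunit genes in the 3 acrylamide comparisons, but whether the numbers pair the arrays is not known.

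The median of all subunits in males at night was 0.31 under median centring and 0.37 with the series matrix, and 0.039 without acrylamide replicates 2 and 4 (added after seeing the data). The first 2 settings also move the median of all genes, and the subunit median stayed 0.20 above it in both. In the same order the median of the effect by sex was 0.21 and 0.27, and that of the 19S cap in males 0.21 and 0.27; with the series matrix that of constitutive beta genes in males was 0.30 and that of night against morning 0.46. Without replicates 2 and 4 in males, the medians were 0.063 for alpha, -0.011 for constitutive beta and 0.023 for Psme1 and Psme2. Without the 3 assembly chaperones (added after seeing the data), the cap median was 0.03 in males and 0.22 in the morning. Without replicates 1 and 2 in the morning, the medians were -0.0095 for all subunits and -0.016 for constitutive beta. Leaving out 1 array at a time, the 19S cap median in the morning ran from 0.093 to 0.25, and Psmb8 minus Psmb5 from -0.31 to 0.10 in males and from -0.50 to 0.76 in the morning. The cause of these shifts was not tested. All subunit probes kept were well above background on all 24 arrays.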
